A study of Homo sapiens with 6 samples.

Results

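SWI/SNF complexes are assemblies of many proteins that use ATP to slide or evict nucleosomes and so open DNA to transcription factors. The set described here holds 10 of their subunit genes, chosen by name: ARID1A, ARID1B, ARID2, SMARCA2, SMARCA4, SMARCB1, SMARCC1, SMARCC2, SMARCD3 and PBRM1. On the array 18 probes carried the symbol of 9 of these genes, out of 18849 genes with a named probe in all, and no named probe stood for PBRM1, which is therefore not analysed here. The complexes are built around 1 ATPase, SMARCA4 (BRG1) or SMARCA2 (BRM), on a scaffold of SMARCC1 (BAF155) and SMARCC2 (BAF170) with a SMARCD subunit (BAF60). SMARCB1 (SNF5) belongs to the core of the BAF and PBAF forms and is missing from the non-canonical form. ARID1A or ARID1B marks BAF, and ARID2 with PBRM1 marks PBAF. In ovarian cancer the family is best known for ARID1A mutations in clear cell and endometrioid carcinoma and for loss of SMARCA4 in a rare small cell carcinoma. SKOV3 itself has been described as carrying an ARID1A mutation and as lacking the BAF155 protein. That is background and was not measured here, since the arrays record RNA only.

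The samples were 3 arrays of SKOV3-OM3, labelled as metastatic cells and called OM3 here, and 3 arrays of SKOV3-ip1, labelled as the parental cells and called ip1. Both carry the label SKOV3, a long-established line from a human ovarian carcinoma. The labels give no treatment, no passage and no statement that the arrays of a group came from separate cultures, so every p-value reflects array-to-array spread that could be technical alone. They also give no slide or scan, so a batch could not be examined. Median deposited intensities ran from 139.9 to 142.2 on OM3 arrays and from 130.9 to 140.5 on ip1 arrays. Between 38.1% and 42.1% of probes read above background, depending on the array.

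Markers that go with the label were in part missing in OM3 and present in ip1. Of 12 markers of SKOV3 and of ovarian carcinoma, 5 had a probe above background on all OM3 arrays, against 12 of 12 on all ip1 arrays. Their summed normalized intensity was 9321 to 10983 in OM3 and 46186 to 50257 in ip1. KRT19, SOX17 and MSLN had no probe above background on any OM3 array, whereas ERBB2, KRT8, KRT18, EPCAM and MUC16 had one on all 3. By limma's test 10 of the 12 fell and 1 rose, beside 25.9% and 31.2% of all tested genes. The 1 that rose was EPCAM (0.97 ± 0.13 on the log2 scale, adjusted p = 0.000324), and MUC16 did not pass (0.15 ± 0.22, adjusted p = 0.578). KRT8 (-4.32 ± 0.20), ERBB2 (-3.52 ± 0.13) and KRT18 (-1.68 ± 0.18) fell, although above background on every array. PAX8, KRT7, KRT19, WT1, SOX17, MSLN and FOLR1 passed the filter through ip1, where they are high. Their calls and their part of the sums therefore add nothing to the detection counts. Of 10 fibroblast markers, 7 were above background on all OM3 arrays and 1 on all ip1 arrays, with sums of 7866 to 8929 in OM3 and 311 to 347 in ip1. COL1A2, COL3A1, DCN, LUM, THY1 and POSTN passed the filter through OM3 alone. The gap between these sums therefore adds nothing to the detection counts. Of 5 mesothelial markers, 1 was above background on all OM3 arrays and 3 on all ip1 arrays (sums of 163 to 288 in OM3 and 1068 to 1176 in ip1). UPK3B and LRRN4 passed the filter through ip1 alone, so the same holds for these sums. Of 6 leukocyte markers with a probe, 2 were above background on all OM3 arrays and 2 on all ip1 arrays, and the sums were 595 to 749 in OM3 and 1944 to 2535 in ip1. Of the 3 tested, the macrophage and lysosome gene CD68 fell (normalized log2 levels of 9.07 in OM3 and 11.07 in ip1, SE of the difference 0.18), while CD14 (a log2 fold change of -0.27 ± 0.20) and LYZ (0.23 ± 0.17) did not pass. PTPRC, the pan-leukocyte marker CD45, was too dim to pass the filter. Of 6 endothelial markers, 1 was above background on all arrays of either group, with sums of 154 to 199 in OM3 and 153 to 170 in ip1, and CDH5 and VWF did not pass the filter. Of 6 adipocyte markers, 1 was above background on all OM3 arrays and 2 on all ip1 arrays, with sums of 320 to 418 in OM3 and 299.96 to 599.8 in ip1, and ADIPOQ did not pass. Each sum covers only the markers of its list that passed the filter. These were all 12 carcinoma, 7 fibroblast, 3 mesothelial, 3 leukocyte, 2 endothelial and 2 adipocyte markers. The part of these marker differences in the values that follow was not tested. In such bulk samples, fewer cells of a type and less RNA per cell cannot be told apart. Normalized gene levels correlated at 0.98 to 0.99 between arrays of a group and at 0.80 to 0.81 between groups. Whether both groups are the same line, as their labels say, was not tested.

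The comparison of OM3 with ip1 asks which genes differ between the metastatic and the parental cells. All 9 subunit genes with a named probe passed the filter. SMARCC1, SMARCD3, ARID1A and SMARCA4 were higher in OM3, SMARCB1 was lower, and SMARCA2, SMARCC2, ARID1B and ARID2 did not pass the test. A change means an adjusted p under 0.05 in limma's test across all 11729 tested genes. At that threshold 57.1% of all genes were called (31.2% higher and 25.9% lower), so 5 of 9 subunit genes, or 55.6%, is close to that share. The subunits' median log2 fold change was 0.51, beside 0.09 over all tested genes, and the median size of the change, regardless of direction, was 0.51 beside 0.54. Both subunit medians are the value of ARID1B, a dim gene that did not pass the test. The median log2 fold change of the list was 0.49 with cyclic loess and with median centring. In the authors' value table it was 0.29, beside 0.05 over all tested genes. In 6 of the 9 the groups did not overlap on the normalized scale, as in 64.2% of all genes. Called and at least 2-fold higher were 2 of the 9, and none at least 2-fold lower, beside 12.8% and 13.8% of all genes. These were SMARCC1, with only 52 of the 11729 genes ahead of it in log2 fold change, and SMARCD3, with 232 ahead.

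**Figure D1:**
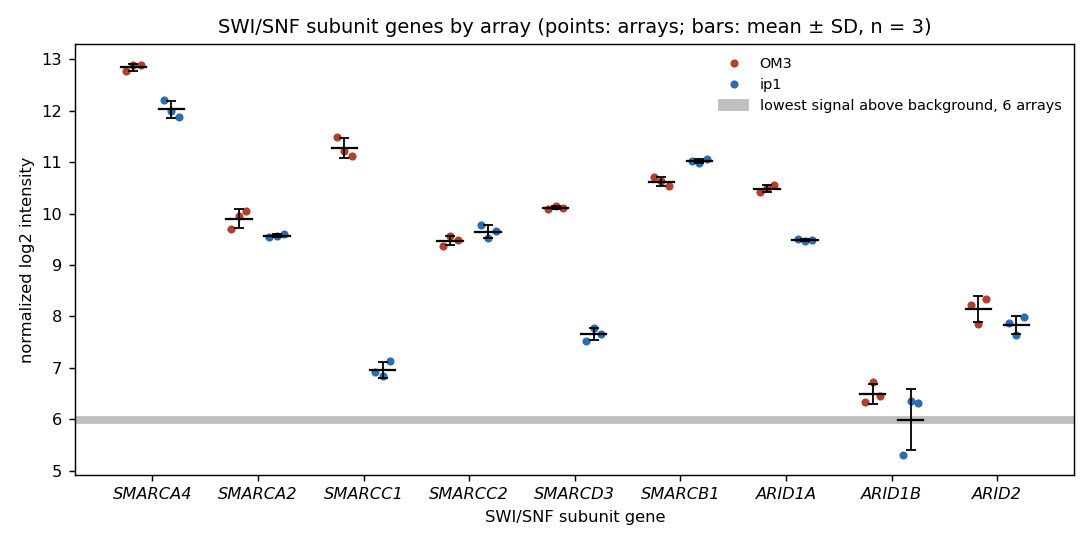
Normalized log2 intensity (vertical axis) of the 9 measured subunit genes (horizontal axis) on each of the 3 OM3 and 3 ip1 arrays, with the mean and SD of each group; levels are comparable between groups of 1 gene, not between genes. SMARCC1 shows the widest gap, 11.27 in OM3 and 6.97 in ip1, and ARID1B lies next to the grey band of background.

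The start regions of the subunits that rose are shown first, as far as the windows used here cover them. RefSeq's table for GRCh38.p14 gives windows of 300 bases, 250 before and 50 after a start. It holds 15 such windows for 7 of the 10 genes. SMARCC1, SMARCC2 and ARID2 are not in it, which does not mean that they lack an annotated start. In each sequence, written 5′ to 3′ along the gene's strand, capitals mark GC boxes, the letters GGGCGG on either strand, which are the classical site of SP1. Overlapping boxes were counted separately. SMARCD3 has 3 windows on the minus strand, at chr7:151277100-151277399, chr7:151276685-151276984 and chr7:151248645-151248944. ARID1A has 1 on the plus strand at chr1:26695765-26696064, and the first of SMARCA4 is on the plus strand at chr19:10960780-10961079.
SMARCD3 window 1: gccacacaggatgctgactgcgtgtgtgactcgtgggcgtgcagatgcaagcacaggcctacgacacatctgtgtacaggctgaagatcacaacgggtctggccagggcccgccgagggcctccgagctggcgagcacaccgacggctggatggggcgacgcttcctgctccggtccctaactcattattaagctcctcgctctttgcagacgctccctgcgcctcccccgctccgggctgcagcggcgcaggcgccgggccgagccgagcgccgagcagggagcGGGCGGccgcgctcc
SMARCD3 window 2: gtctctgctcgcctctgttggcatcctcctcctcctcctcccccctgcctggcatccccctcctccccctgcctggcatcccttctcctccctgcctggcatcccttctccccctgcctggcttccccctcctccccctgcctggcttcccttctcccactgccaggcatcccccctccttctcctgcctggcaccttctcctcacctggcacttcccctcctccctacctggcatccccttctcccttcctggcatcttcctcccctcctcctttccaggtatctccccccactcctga
SMARCD3 window 3: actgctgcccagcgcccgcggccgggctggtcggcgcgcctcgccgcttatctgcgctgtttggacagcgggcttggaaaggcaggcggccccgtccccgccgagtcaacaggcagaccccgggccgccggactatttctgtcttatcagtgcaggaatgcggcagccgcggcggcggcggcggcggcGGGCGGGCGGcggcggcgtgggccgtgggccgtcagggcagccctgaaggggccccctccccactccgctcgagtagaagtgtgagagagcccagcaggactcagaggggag
ARID1A window 1: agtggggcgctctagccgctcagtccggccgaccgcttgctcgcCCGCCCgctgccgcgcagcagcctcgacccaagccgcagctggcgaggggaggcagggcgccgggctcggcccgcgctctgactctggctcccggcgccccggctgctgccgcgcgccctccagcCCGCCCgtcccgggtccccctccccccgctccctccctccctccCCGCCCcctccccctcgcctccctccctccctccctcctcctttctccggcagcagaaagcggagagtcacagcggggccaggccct
SMARCA4 window 1: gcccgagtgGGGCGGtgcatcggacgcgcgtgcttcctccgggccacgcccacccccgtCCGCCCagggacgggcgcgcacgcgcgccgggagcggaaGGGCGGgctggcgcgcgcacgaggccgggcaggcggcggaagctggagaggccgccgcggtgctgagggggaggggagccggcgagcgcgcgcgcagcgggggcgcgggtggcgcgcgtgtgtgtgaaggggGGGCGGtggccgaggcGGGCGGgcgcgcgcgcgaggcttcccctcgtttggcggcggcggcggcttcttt

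These windows differ in their CpG content, a feature of promoters active in many tissues. The first SMARCA4 window holds 55 CpG and 5 GC boxes, more CpG than 99.6% of the 35116 windows in the table, whose median is 14. The second SMARCA4 window, at chr19:10983874-10984173 and not printed, holds 5 CpG and no GC box. The ARID1A window holds 33 CpG and 3 GC boxes. Of the SMARCD3 windows, the first has 31 CpG and 1 GC box and the third has 36 CpG and 2 GC boxes, whereas the second has 1 CpG and no GC box, although 66.0% of its bases are G or C. Among all 15 windows of the subunit genes, 9 hold a GC box, 3 a CCAAT box (CCAAT) and 1 a TATA box (TATAAA), with both strands searched. The shares among all 35116 windows are 45.0%, 34.6% and 11.5%, in that order. Such matches are a description of letters and not sites shown to be used, and the arrays do not tell from which start a transcript came.

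Of the ATPases, SMARCA4 rose and SMARCA2 did not pass the test. SMARCA4 had deposited intensities of 7447, 7963 and 7857 on the OM3 arrays, against 4852, 3849 and 3420 on the ip1 arrays. Every OM3 value lay above every ip1 value. Its normalized log2 level was 12.85 ± 0.07 in OM3 and 12.03 ± 0.16 in ip1 (SD, n = 3 each), a log2 fold change of 0.82 ± 0.14 (SE, limma, adjusted p = 0.000894), or 1.77-fold. SMARCA2, the alternative ATPase, had intensities of 980.3, 1147 and 1237 in OM3, against 841.1, 747.6 and 765.3 in ip1. The groups did not overlap here either, but the log2 fold change of 0.33 ± 0.14 missed the threshold (limma, adjusted p = 0.0695, 95% interval 0.02 to 0.65). That call depended on the setting: adjusted p ran from 0.0166 with median centring to 0.222 over the alternatives tried. A further SMARCA2 probe was below background on all 6 arrays and was not tested.

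The scaffold gene SMARCC1 showed the largest difference among the subunits. Its intensities were 3103, 2630 and 2480 on the OM3 arrays, against 212.9, 191.9 and 219.1 on the ip1 arrays. All 6 arrays read above background, and the ip1 arrays lay close to it. The normalized log2 level was 11.27 ± 0.19 in OM3 and 6.97 ± 0.16 in ip1, a log2 fold change of 4.31 ± 0.15 (SE, n = 3 + 3, limma, adjusted p = 8.18e-08), or 19.8-fold. Since the ip1 signal lies near the background, the size rests on how that background is removed. The log2 fold change was 3.62 with no background correction and 3.41 in the authors' value table. A single probe (ILMN_1694603) stands for SMARCC1, so no further probe bears on it.

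Its paralogue SMARCC2, which shares the scaffold position, did not pass the test. The brightest of its 3 kept probes had intensities of 797.4, 886.6 and 851.8 in OM3, against 972.5, 728.3 and 788.8 in ip1, and the groups overlapped. The log2 fold change was -0.18 ± 0.13 (limma, adjusted p = 0.287, 95% interval -0.48 to 0.13), so a rise of the size seen in SMARCC1 lies far outside its interval. The other kept probes gave 0.10 ± 0.18 and -0.40 ± 0.28, the last of them above background on 1 of 3 OM3 arrays and 2 of 3 ip1 arrays, and neither was called.

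SMARCD3 encodes BAF60C, the SMARCD subunit best known from heart and skeletal muscle. Its brightest probe read 1269, 1300.1 and 1285 on the OM3 arrays, against 279.2, 286.2 and 275.1 on the ip1 arrays. Both groups were tight and far apart. The normalized log2 level was 10.12 ± 0.03 in OM3 and 7.66 ± 0.12 in ip1, a log2 fold change of 2.46 ± 0.13 (SE, n = 3 + 3, limma, adjusted p = 7.08e-07), or 5.51-fold. Further probes were annotated to other SMARCD3 transcripts. The second rose as well, with 2.03 ± 0.16 (limma, adjusted p over all 19002 kept probes = 1.48e-05). The third and dimmest gave 0.98 ± 0.24 (limma, adjusted p over all probes = 0.00848). On the ip1 side just 1 of its 3 arrays exceeded background, so it passed the filter through OM3 alone, and neither its call nor its size adds to that of the other probes.

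SMARCB1, the core subunit lost in rhabdoid tumours, was the only subunit of the list called lower in OM3. Its brightest probe read 1888, 1787 and 1683 in OM3, against 2204, 1885 and 1945 in ip1. These deposited intensities overlap at the edge, while the normalized values do not. The log2 fold change was -0.40 ± 0.12 (limma, adjusted p = 0.0199). The second probe gave -0.43 ± 0.17 and missed the threshold (limma, adjusted p over all probes = 0.0586). The call was lost with median centring (-0.24, adjusted p = 0.137), with no filter on dim probes (adjusted p = 0.0653), without OM3 replicate 3 (adjusted p = 0.0646) and without ip1 replicate 3 (adjusted p = 0.0607).

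Among the subunits with an ARID domain, which binds DNA, ARID1A rose. Its brightest probe had intensities of 1551, 1642 and 1703 on the OM3 arrays, against 825.4, 706.2 and 724.3 on the ip1 arrays, with every OM3 value above every ip1 value. The normalized log2 level was 10.48 ± 0.07 in OM3 and 9.49 ± 0.02 in ip1, a log2 fold change of 1.00 ± 0.12 (SE, n = 3 + 3, limma, adjusted p = 0.000138), or 1.99-fold. A further ARID1A probe was below background on all 6 arrays and was not tested. A probe of this kind reports RNA that holds its target and does not tell a mutated from an intact transcript.

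ARID1B, the alternative partner in BAF, was dim: 168.8, 188.1 and 171.9 in OM3, against 125.5, 159.6 and 156.5 in ip1. It was above background on 3 of 3 OM3 arrays and 2 of 3 ip1 arrays, and the normalized values overlapped. Its log2 fold change of 0.51 ± 0.28 did not pass (limma, adjusted p = 0.147, 95% interval -0.12 to 1.14), and a further probe was below background on all 6 arrays. Without ip1 replicate 1, the array below background, it was 0.16 (adjusted p = 0.404), and it reached 0.69 without ip1 replicate 2 (adjusted p = 0.0805). ARID2, the PBAF subunit, read 403.2, 314.7 and 423.6 in OM3, against 331.2, 269.5 and 321.3 in ip1. The groups overlapped and the log2 fold change of 0.30 ± 0.17 did not pass (limma, adjusted p = 0.159, 95% interval -0.08 to 0.69). Its second probe gave 0.07 ± 0.20. ARID2 passed the threshold only without OM3 replicate 2 (0.44, adjusted p = 0.0489).

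**Figure D2:**
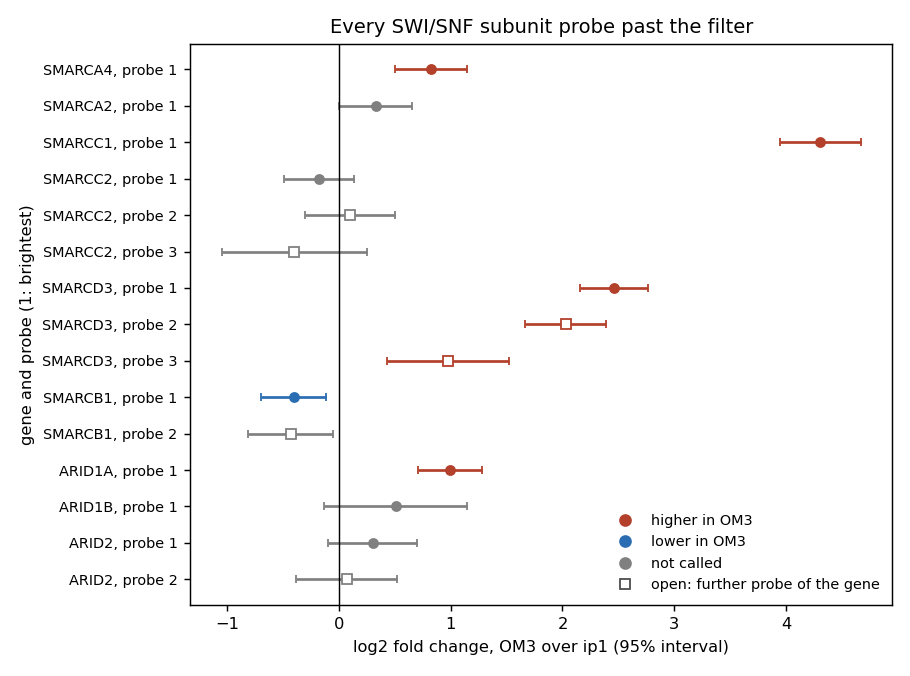
Log2 fold change of OM3 over ip1 (horizontal axis) with its 95% interval for each of the 15 subunit probes past the filter (vertical axis), the brightest probe of a gene filled and further probes open. Of these, 6 were called higher and 1 lower, with adjustment over all kept probes. The brighter SMARCD3 probes lie near 2.46 and 2.03, and the 3 SMARCC2 intervals all cross the line of no change.

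Over all 19002 kept probes, 51.3% were called, 28.2% higher and 23.1% lower, beside 7 of the 15 subunit probes, the dimmest SMARCD3 probe included. No subunit gene of the list had kept probes called in opposite directions.

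Paralogous subunits that fill the same place in a complex were then set against each other within each array. This asks whether both genes of a pair changed by the same amount. SMARCC1 gained 4.48 ± 0.18 on the log2 scale relative to SMARCC2 in OM3 compared with ip1 (SE, n = 3 + 3). SMARCD3 gained 2.76 ± 0.16 relative to SMARCD1, the more widely expressed BAF60 paralogue. SMARCA2 changed by -0.49 ± 0.13 relative to SMARCA4, that is, it rose less. In these 3 pairs the arrays of both groups did not overlap. Among single tested genes 64.2% did not overlap, and no such share was computed over other gene pairs. The lack of overlap alone therefore does not set these pairs apart. ARID1A changed by 0.49 ± 0.37 relative to ARID1B, with overlap. With 3 arrays against 3 the exact two-sided permutation test cannot give a p below 0.1. The first 3 pairs reached that value (0.133 after adjustment over the 4 pairs), and ARID1A with ARID1B gave p = 0.4 by the same exact test. At this number of arrays the test could not have passed 0.05 for any pair, so these p-values say little about the pairs, and the differences are given with their SE. SMARCD1 itself had a log2 fold change of -0.30 ± 0.14 (limma, adjusted p = 0.0972), which passed with no background correction, with cyclic loess, with an intensity trend and in the authors' value table (adjusted p from 0.0337 to 0.0493 there).

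**Figure D3:**
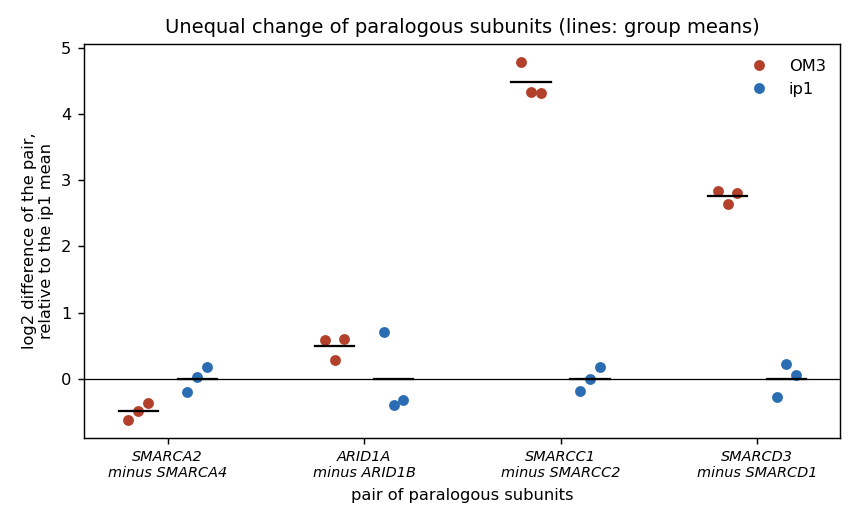
Within-array log2 difference between the genes of each pair (vertical axis, set to 0 at the ip1 mean) for 4 pairs of paralogous subunits (horizontal axis), with 3 OM3 and 3 ip1 arrays as points and group means as lines. The OM3 arrays stand 4.48 above ip1 for SMARCC1 over SMARCC2 and 2.76 above for SMARCD3 over SMARCD1, and overlap ip1 for ARID1A over ARID1B.

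The other subunits of the complexes mostly did not pass the test. Of 21 further subunit genes, 17 were tested: 2 rose, 1 fell and 14 did not pass, or 17.6% called beside 57.1% of all genes. Their median log2 fold change was 0.02, and -0.09 with cyclic loess, where 1 rose and 3 fell. BRD9, the bromodomain subunit that marks the non-canonical form of the complex, read 2947, 3485 and 3124 in OM3, against 1713, 1718 and 1768 in ip1, a log2 fold change of 0.69 ± 0.14 (limma, adjusted p = 0.00231). PHF10, a PBAF subunit, had 0.36 ± 0.13 (limma, adjusted p = 0.044), and its call was lost in 7 of 16 alternatives, cyclic loess among them (adjusted p = 0.17). BCL11A, a transcription factor found with BAF in blood and brain cells, read 125.9, 172.0 and 138.5 in OM3, against 292.1, 255.5 and 250.9 in ip1. It was above background on 1 of 3 OM3 arrays, so its log2 fold change of -1.72 ± 0.27 (limma, adjusted p = 0.000678) rests in part on background signal. BCL11A passed the filter through ip1 alone, where it is high, so its call, the 1 that fell, adds nothing to these detections. The remaining 14, among them the actin-related subunit ACTL6A, the BAF57 gene SMARCE1, SS18 and DPF2, had log2 fold changes from -0.40 to 0.33. ACTL6B, DPF3 and BCL11B, subunits of nerve, muscle and lymphoid forms, did not pass the filter. How many of these genes were called depended on the setting, from 2 to 6 over the alternatives.

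For comparison, 54 tested genes of 4 other remodelling groups held 18 that rose and 6 that fell, 44.4% called, with a median log2 fold change of 0.25. Among all tested genes 57.1% were called, 31.2% higher and 25.9% lower. Of 10 ISWI genes, 6 rose and none fell (6 and 1 with cyclic loess), among them the ATPase SMARCA5 (1.17 ± 0.13, limma, adjusted p = 8.52e-05) and its partner BAZ1A (1.19 ± 0.18, limma, adjusted p = 0.000503). Of 17 CHD and NuRD genes, 5 rose and 3 fell (8 and 3 with median centring). The deacetylase gene HDAC2 (0.99 ± 0.15) and MTA3 (0.92 ± 0.14) rose, and CHD6 fell (-1.11 ± 0.19). CHD5 was below background on all OM3 arrays and at least 1.70-fold lower there. It passed the filter through ip1 alone, so its call, counted among the 3 that fell, adds nothing to that detection. Of 16 genes of the INO80, SRCAP and TIP60-p400 complexes, 3 rose and 2 fell (3 and 3 with cyclic loess, 5 and 1 with median centring), with ACTR6 (1.82 ± 0.22) and the helicase gene RUVBL1 (1.20 ± 0.13) higher and EP400 (-0.68 ± 0.15) and RUVBL2 (-0.48 ± 0.15) lower. Of 11 other SNF2-type ATPases, 4 rose and 1 fell, with SMARCAD1 (1.05 ± 0.20) and BTAF1 (1.02 ± 0.13) higher and RAD54L (-0.48 ± 0.12) lower. None of these 54 genes had a log2 fold change as large as that of SMARCD3 or SMARCC1.

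**Figure D4:**
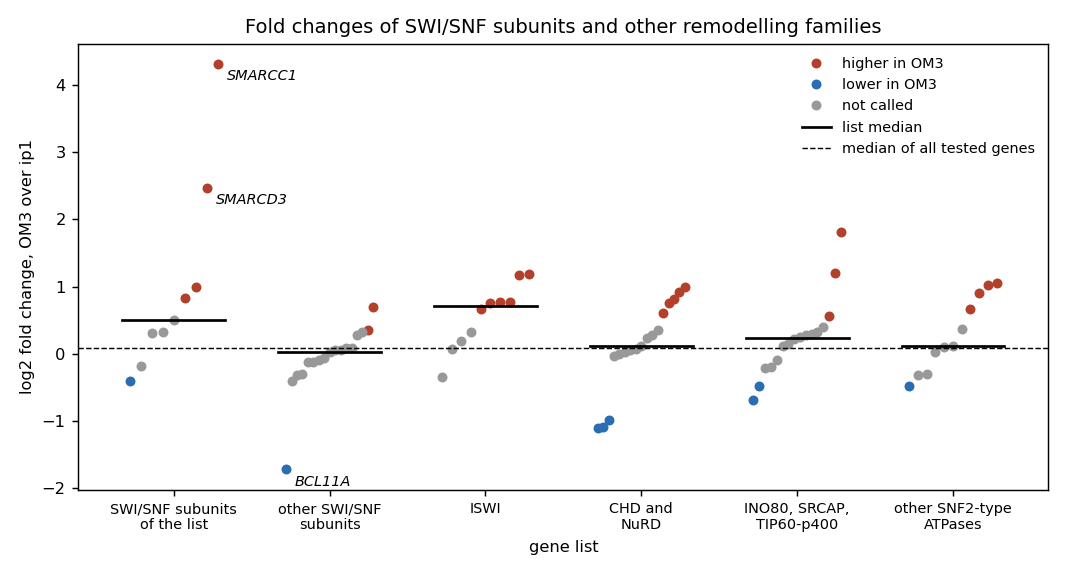
Log2 fold change of OM3 over ip1 (vertical axis) for each tested gene of the subunit list, of the other SWI/SNF subunits and of 4 other remodelling groups (horizontal axis), with list medians as bars and the median of all tested genes, 0.09, as a dashed line. SMARCC1 and SMARCD3 lie above every other point. BCL11A, which passed the filter through ip1 alone, lies below every other point.

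The tested genes next to each subunit that rose were also read, 3 on either side in RefSeq's order for GRCh38.p14, a choice made after the subunit values were seen. Around SMARCC1 on chromosome 3, 2 rose, 1 fell and 3 did not pass, from -1.78 for CSPG5 to 1.29 for DHX30, its direct neighbours, beside 4.31 for SMARCC1. Around SMARCD3 on chromosome 7, 1 rose, 2 fell and 3 did not pass, from -1.27 for ASB10 to 0.53 for ABCF2, beside 2.46 for SMARCD3. Around ARID1A on chromosome 1, none rose and 5 fell, the lowest being SFN at -6.71. Around SMARCA4 on chromosome 19, none rose and 3 fell, the lowest being KANK2 at -2.43. Over all tested genes 31.2% were called higher and 25.9% lower. In none of these 4 places did a tested neighbour rise by as much as the subunit gene. The 4 were read because they rose, which made that outcome likely beforehand, so no conclusion is drawn from it.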

How the data were processed

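Linear bead intensities of 48799 probes, as deposited by the authors, were used; the submitters' processing notes name BeadStudio, with no version, and whether background was subtracted is not stated there. Column names show a group without saying which of its samples, so replicate numbers here follow the columns' order, and 3 columns that match no sample were not used. The authors' deposited log2 values of the same arrays share 1 distribution (median 7.00), over an unstated set of arrays, and served as an alternative; each of their columns had a rank correlation of 1 with an array of its own group, which gives their direction.

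Signals were corrected with limma's normexp model (offset 16), quantile normalized over the 6 arrays and taken to log2. Background was judged per array, at an upper-tail normal probability of 0.05 against the mode of the array's log2 signals (kernel bandwidth 0.02, SD from the values below the mode). Probes above it on at least 3 arrays were kept, 19002 in all. Symbols came from the platform annotation (28094 probes with 1 gene, 13 with several, 20692 with none), updated through RefSeq. The brightest kept probe stood for a gene, which gave 11729 genes.

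The contrast of OM3 with ip1 was fitted in limma 3.58.1 in R 4.3.3, by a two-sided moderated test (lmFit, eBayes) with Benjamini-Hochberg adjustment over all genes and a threshold of 0.05. The fitting code was checked on simulated arrays with known shifts. The number of arrays limits the precision, with a median standard error of 0.16. Fold changes are OM3 over ip1. For genes near background their size depends on the background correction. For SMARCC1, BCL11A and ARID1B the log2 fold changes were 4.31, -1.72 and 0.51 with the settings above. They were smaller in size with no background correction (3.62, -0.92 and 0.22). They were larger in size with the background set from the mode (4.65, -2.20 and 0.64). "At least" marks a gene below background on a whole group, set against the higher of its own signal and the lowest signal above background. All subunits with a probe are named, then the called genes among the other subunits (up to 8 each way) and up to 2 called genes each way of each other group. The subunits and lists were chosen with earlier results of these data known. The alternatives varied background, scaling, filter, probe choice, variance prior, value table and replicates.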

Additional observations from a re-analysis of the deposited data

How the results depend on the processing

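No paired analysis was possible because the groups share no replicate number in the labels. Of the subunit list, 4 genes were called higher and 1 lower; over the 16 alternatives 4 or 5 were higher, and no subunit changed its direction. SMARCC1, SMARCD3, ARID1A and SMARCA4 were called in all 16, at log2 fold changes of 3.41 to 4.65, 1.82 to 2.64, 0.87 to 1.15 and 0.74 to 0.91. The count called lower was 0 with median centring and with no filter on dim probes, and 0 to 1 when 1 replicate was left out. Of the other subunits, 3 were called; this became 6 with no background correction, 5 with median centring, 6 with an intensity trend in the variance prior, 6 in the authors' value table and 2 to 3 with 1 replicate left out. The difference between SMARCC1 and SMARCC2 (4.48) was 4.15 with normexp offset 50, 3.77 with no background correction, 4.83 with the background set from the mode and 3.56 in the authors' value table. That between SMARCD3 and SMARCD1 (2.76) was 2.36 with no background correction, 2.17 with the mean of the kept probes and 2.22 in the authors' value table. With 1 replicate left out these ranged from 4.31 to 4.60 and from 2.64 to 2.89, SMARCA2 against SMARCA4 (-0.49) from -0.60 to -0.39, and ARID1A against ARID1B (0.49) from 0.29 without ip1 replicate 2 to 0.85 without ip1 replicate 1. The causes were not tested. ARID1B and BCL11A did not pass the filter that asks for signal on all 6 arrays, so they have no value there. Cyclic loess moved the median of all genes by -0.107 and turned the balance of calls to 3077 higher and 3492 lower, from 3657 and 3043. Signal near background limits ARID1B, BCL11A and the ip1 level of SMARCC1.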
